A study of Mus musculus with 36 samples.

Results

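The interleukin-1 (IL-1) family ligands and receptors comprised 8 genes, *Il1r1*, *Il1rap*, *Il1rl1*, *Il1rn*, *Il1a*, *Il1b*, *Il33* and *Sigirr*, chosen by gene symbol from the 53421 genes of the deposited tables. IL-1α and IL-1β bind IL1R1, which then pairs with the accessory protein IL1RAP, recruits MyD88 and starts NFκB and MAP kinase signalling. IL1RL1 (ST2) is the receptor for IL-33 and uses the same accessory protein. IL1RN, the IL-1 receptor antagonist, occupies IL1R1 without recruiting IL1RAP, and SIGIRR is an inhibitory member of the receptor family.

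The cells were an immortalised wild-type line of mouse fibroblast-like chondrocytes. They were transfected with a pool of siRNAs against *Ift88* (IFT88siRNA), which encodes a component of the intraflagellar transport that builds cilia, or with a non-targeting pool (NT). The labels and the methods give different siRNA concentrations, and none is stated here. Cells were then left in medium without cytokine (0 h) or given IL-1β at 10 ng/ml, with RNA taken at 1 h, at 2 h, at 4 h, at 8 h or at 24 h, in 3 replicates of each of the 12 conditions (36 libraries). All cells carried a siRNA pool. No library analysed here came from cells kept without IL-1β beyond 0 h, so time in culture and exposure to IL-1β cannot be told apart. The labels do not say whether replicates were separate cultures, so the p-values measure the spread between these libraries only.

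Libraries held 19337022 to 38304127 counted reads, with a median of 21672803.5 in NT and 25873754 in IFT88siRNA. *Ift88* lay between 5.68 and 10.3 CPM in the NT libraries and between 1.41 and 3.14 CPM in the IFT88siRNA libraries, without overlap at any time (log2 difference -2.12 to -1.47, called at all 6 times). Markers of the labelled cell type were uneven. The chondrocyte genes *Col11a1* (median 4405 reads per library) and *Sox9* (592.5) were well covered, while *Acan* (median 4 reads) and *Col9a1* (0 reads in 25 of 36 libraries) were at or near 0. The 10 fibroblast markers summed to between 3072 and 6248 TPM in NT and between 3342 and 6594 TPM in IFT88siRNA. They too were uneven. At 0 h in NT the highest were *Vim* (2177 TPM) and *S100a4* (1588). The lowest were *Lum* (0.416), *Pdgfra* (7.89), *Dcn* (11.7) and *Thy1* (12.4). Mast cells are known for IL1RL1, and of their 6 markers *Tpsb2* and *Fcer1a* were at 0 in all 36 libraries, *Cpa3*, *Mcpt4* and *Kit* at 0 in 35 each, and *Ms4a2* at 0 in 7, with at most 8 reads. The mast cell markers summed to between 0.0315 and 0.390 TPM in NT and between 0 and 0.391 TPM in IFT88siRNA. The 8 leukocyte markers summed to between 15.6 and 50.03 TPM in NT and between 18.7 and 39.3 TPM in IFT88siRNA, with *Ptprc* and *Adgre1* at 0 in 18 and 28 libraries. *Cd14* (149 to 1051 reads per library) and *Cd68* (64 to 164) were at 0 in no library.

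In GRCm38, all 8 members are annotated as protein coding. *Il1r1* (ENSMUSG00000026072, chr1:40225080-40317257) and *Il1rl1* (ENSMUSG00000026069, chr1:40429570-40465415) lie on the plus strand of chromosome 1. On the plus strand elsewhere are *Il1rap* (ENSMUSG00000022514, chr16:26581704-26730117), *Il1rn* (ENSMUSG00000026981, chr2:24336853-24351494) and *Il33* (ENSMUSG00000024810, chr19:29925114-29960718). On the minus strand are *Il1a* (ENSMUSG00000027399, chr2:129299610-129309972), *Il1b* (ENSMUSG00000027398, chr2:129364570-129371139) and *Sigirr* (ENSMUSG00000025494, chr7:141091175-141100572). The paper gives default parameters for featureCounts and names no strand setting, and how reads over shared bases were assigned was not examined. Without strand, reads over the 552 exonic bases that *Il1rap* shares with the antisense gene *Gm20319* cannot be told apart by gene. The same holds for the 222 that *Il1a* shares with *Gm14023* and the 25 that *Il1b* shares with *Il1bos*. *Gm20319* had at most 9 reads in a library, against at least 1807 for *Il1rap*, whereas *Gm14023* reached 12 reads, a number of the size of those for *Il1a*.

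The sequence around annotated starts is shown for the 4 well covered members, which rose with different timing after the same stimulus. Each window runs from 250 bases before to 50 bases after a RefSeq start (GRCm38.p6, plus strand). Capitals mark matches on either strand to a loose κB-like motif (GGG, any 5 bases, then CC), a form of the element bound by NFκB, or to the AP-1-like motif TGANTCA. The windows are chr1:40429320-40429619 and chr1:40439379-40439678 for *Il1rl1*, chr16:26581455-26581754 for *Il1rap*, chr2:24336610-24336909 for *Il1rn* and chr1:40266336-40266635 for *Il1r1*.
Il1rl1 upstream start: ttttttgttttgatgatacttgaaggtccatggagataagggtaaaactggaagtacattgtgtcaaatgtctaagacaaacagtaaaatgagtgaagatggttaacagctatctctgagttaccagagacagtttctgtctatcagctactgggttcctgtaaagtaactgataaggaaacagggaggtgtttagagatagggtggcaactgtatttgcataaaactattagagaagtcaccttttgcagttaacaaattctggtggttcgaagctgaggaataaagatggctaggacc
Il1rl1 downstream start: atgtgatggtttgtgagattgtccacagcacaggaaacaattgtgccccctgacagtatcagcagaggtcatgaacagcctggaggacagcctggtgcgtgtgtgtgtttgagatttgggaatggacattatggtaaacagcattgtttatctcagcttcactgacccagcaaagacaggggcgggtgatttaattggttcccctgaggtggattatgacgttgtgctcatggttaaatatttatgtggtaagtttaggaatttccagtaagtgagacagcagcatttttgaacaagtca
Il1rap: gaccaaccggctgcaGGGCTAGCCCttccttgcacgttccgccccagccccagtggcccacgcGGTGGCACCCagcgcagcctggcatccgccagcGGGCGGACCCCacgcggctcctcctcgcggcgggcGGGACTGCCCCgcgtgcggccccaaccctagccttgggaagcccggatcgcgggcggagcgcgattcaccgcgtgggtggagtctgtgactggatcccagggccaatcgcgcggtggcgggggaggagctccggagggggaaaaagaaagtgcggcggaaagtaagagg
Il1rn: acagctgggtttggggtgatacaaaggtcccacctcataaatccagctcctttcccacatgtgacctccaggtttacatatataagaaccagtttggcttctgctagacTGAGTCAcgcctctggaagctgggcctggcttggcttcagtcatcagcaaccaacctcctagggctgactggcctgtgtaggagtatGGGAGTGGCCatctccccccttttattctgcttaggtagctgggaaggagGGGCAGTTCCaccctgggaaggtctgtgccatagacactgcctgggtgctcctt
Il1r1 downstream start: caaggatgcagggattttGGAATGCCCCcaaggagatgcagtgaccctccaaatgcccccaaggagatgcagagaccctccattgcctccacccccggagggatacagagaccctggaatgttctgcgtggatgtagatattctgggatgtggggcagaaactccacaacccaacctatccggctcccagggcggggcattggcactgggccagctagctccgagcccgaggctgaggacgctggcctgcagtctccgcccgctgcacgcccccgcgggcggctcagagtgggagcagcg

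Neither *Il1rl1* window held a match to either motif. The *Il1rap* window, 72.0% G and C, held 6 κB-like matches, of which 2 pairs overlap. The *Il1rn* window shown held GGGAGTGGCC beginning 54 bases and GGGCAGTTCC beginning 4 bases before the start, and TGAGTCA beginning 141 bases before it. The other *Il1rn* windows, which overlap each other, each held the κB-like match GGGTTTTTCC. The *Il1r1* window shown held GGAATGCCCC beginning 232 bases before its start, and the upstream *Il1r1* window held none. RefSeq gave 12 windows for 7 members, a pair of *Il1rn* windows among them overlapping. Of these, 5 held the κB-like and 2 the AP-1-like motif, while 50.8% and 7.81% of the 32851 windows in the table held them. These are matches of letters, and binding was not measured.

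Per transcript length, 4 members were well expressed and 4 barely. *Il1rn* ran from 72.8 to 549.7 TPM over the 36 libraries, *Il1rl1* from 11.02 to 557 TPM, *Il1rap* from 32.002 to 112 TPM and *Il1r1* from 12.9 to 39.5 TPM. The highest mean TPM of any condition was 1.41 for *Il33*, 0.719 for *Il1a*, 0.591 for *Sigirr* and 0.138 for *Il1b*. The signalling chain *Il1r1* had the lowest mean TPM of the 4 well expressed members in every condition but IFT88siRNA at 0 h, when *Il1rl1* (12.4 TPM) was below it (15.2 TPM).

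**Figure D1:**
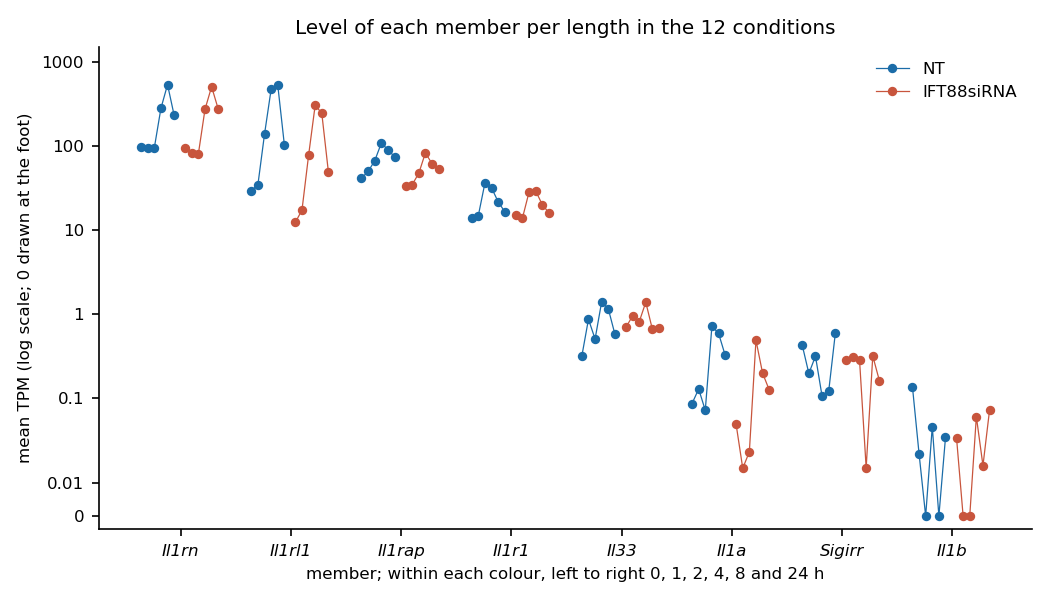
Mean TPM (log axis, with 0 drawn at the foot) of the 8 members in the 12 conditions; each point is the mean of 3 libraries, and within each colour the times run from left to right. *Il1rn*, *Il1rl1*, *Il1rap* and *Il1r1* stay at or above 12.4 TPM, and the other 4 members stay at or below 1.41 TPM.

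The NT time course asks how cells given IL-1β alter the genes of their own IL-1 system. All members called in edgeR were called higher. *Sigirr*, which did not pass the filter on low counts, had fewer reads at 2 h, 4 h and 8 h than at 0 h in NT cells. A gene was called when its adjusted p was under 0.05 and its fold change over 1.5 (edgeR quasi-likelihood test, Benjamini-Hochberg adjustment over all genes tested). Of the 6 members that passed the filter on low counts (all but *Il1b* and *Sigirr*), 1, 4, 6, 6 and 4 were called at the 5 times from 1 h to 24 h, against 18.7%, 27.3%, 28.7%, 19.7% and 16.3% of 16048 genes. The share called higher among all genes was 9.22%, 13.0%, 16.3%, 11.8% and 6.61%. All 6 were called in the joint test over these times, against 50.0% of all genes. *Il1a* passed this filter only through later times at which it was higher than at 0 h, so its calls here were favoured by the filter. The call at 1 h was *Il33*. It met the filter through later times, 24 h among them, and not through its 0 h libraries, so its calls may have been favoured too. The median log2 fold change of the tested members was 0.35, 0.90, 2.01, 2.08 and 1.21, while that of all genes lay between -0.02 and -0.01.

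In IFT88siRNA cells 5 members passed the filter, since *Il1a* did not, and 0, 3, 5, 4 and 3 of them were called at the 5 times from 1 h to 24 h, all higher. The shares among 16129 genes were 15.1%, 25.6%, 29.3%, 17.6% and 14.2%, and 6.82%, 12.4%, 16.0%, 10.5% and 6.36% counting higher calls alone. At 1 h, where edgeR called none of the 5, 3 had an unadjusted p under 0.05 and DESeq2 called 0. The joint test called all 5, against 48.2% of all genes. DESeq2, run without this filter, called 7 members at 4 h. The further calls were *Il1a*, higher (DESeq2 adjusted p = 0.00301), and *Sigirr*, lower (adjusted p = 0.0389). DESeq2 called 6 members in the joint test, adding *Il1a*. The median log2 fold change of the members was 0.19, 0.77, 1.55, 0.95 and 0.73.

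**Figure D2:**
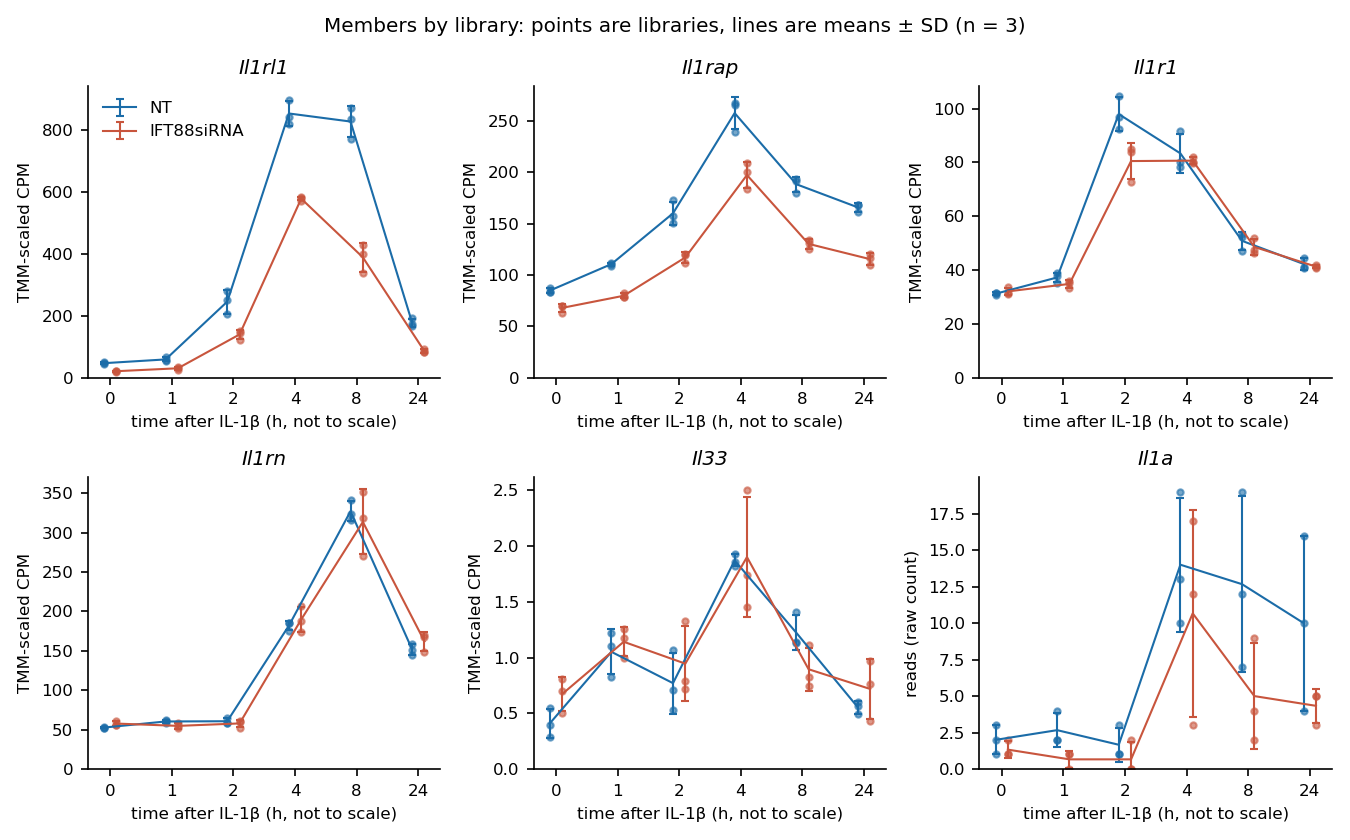
Level of 6 members against time (h, not to scale) in NT and IFT88siRNA cells, in TMM-scaled CPM for 5 of them and in raw reads for *Il1a*; points are libraries, and lines with bars are the mean ± SD of 3. *Il1rl1* and *Il1rap* are lower in IFT88siRNA at all 6 times, *Il1r1* is apart at 2 h only, and *Il1rn* peaks at 8 h, later than *Il1r1* and *Il1rap*.

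*Il1rl1*, the IL-33 receptor, had the largest fold change of the well covered members. In NT cells its levels were 49.003, 48.2 and 42.3 CPM at 0 h, 55.7, 54.2 and 66.0 at 1 h, 250.5, 204 and 281 at 2 h, 897, 842 and 818 at 4 h, 872, 772 and 836 at 8 h, and 191, 172 and 168 at 24 h (CPM, counts scaled to the TMM-adjusted size of each library). The 0 h libraries lay below those of every later time, and only the 4 h and 8 h libraries overlapped. The log2 fold change from 0 h was 0.33 ± 0.10 (SE, n = 3 libraries per time) at 1 h, under the fold threshold, and 2.39 ± 0.10, 4.22 ± 0.10, 4.17 ± 0.10 and 1.89 ± 0.10 at the 4 times from 2 h to 24 h, all 4 called (edgeR adjusted p at most 5.04e-14). The 4 h rise was 18.7-fold. In IFT88siRNA cells the levels were 21.8, 18.3 and 21.6 CPM at 0 h, 30.3, 25.8 and 34.1 at 1 h, 143, 123 and 152 at 2 h, 571, 579 and 583 at 4 h, 427, 337 and 400.2 at 8 h, and 91.7, 81.5 and 81.8 at 24 h. Here no times overlapped, and 8 h was below 4 h in every library. Relative to 0 h the log2 change was 0.50 ± 0.11, 2.74 ± 0.10, 4.82 ± 0.11, 4.24 ± 0.11 and 2.01 ± 0.10 at the 5 times from 1 h to 24 h, called from 2 h on.

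Knockdown of *Ift88* went with less *Il1rl1* before IL-1β was added and at each later time. The IFT88siRNA mean was 44.3%, 51.3%, 56.8%, 67.8%, 47.0% and 48.0% of the NT mean CPM at the 6 times from 0 h to 24 h, and no IFT88siRNA library reached an NT library of its time. The log2 difference was -1.18 ± 0.07, -1.01 ± 0.09, -0.83 ± 0.11, -0.58 ± 0.05, -1.11 ± 0.08 and -1.06 ± 0.06 in the same order (SE, n = 3 per group), with edgeR adjusted p from 1.22e-10 at 0 h to 0.00377 at 2 h. *Il1rl1* was called at 0 h, 1 h, 2 h, 8 h and 24 h, each time as the 1 member of 5 tested, against 2.23%, 2.66%, 0.496%, 0.692% and 1.15% of all genes. At 4 h edgeR called none of 6 members, against 0.432% of all genes, although 2 had an unadjusted p under 0.05, and DESeq2 called 0. The 4 h *Il1rl1* difference of 1.498-fold (edgeR adjusted p = 3.87e-06) fell just short of 1.5, and passed it without NT replicate 2 (log2 -0.59), NT replicate 3 (-0.60) or IFT88siRNA replicate 3 (-0.60). On log2(TPM + 1), limma took the 4 h difference past the threshold (-0.62, adjusted p = 0.00987) and lost the 2 h call (-0.81, adjusted p = 0.0954). The 1 h call was lost on TPM without a filter on low values (adjusted p = 0.0516).

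In bulk RNA, fewer cells expressing a gene and less RNA per cell cannot be told apart, and gene counts do not separate the membrane from the soluble form of IL1RL1. Some markers differed between the siRNA groups. Of 10 chondrocyte markers, 2, 0, 0, 0, 0 and 2 were called higher and 1, 1, 1, 1, 1 and 0 lower in IFT88siRNA at the 6 times from 0 h to 24 h, of 7, 6, 6, 6, 6 and 6 tested. Among all genes 2.23%, 2.66%, 0.496%, 0.432%, 0.692% and 1.15% were called in either direction at these times. Of the 10 fibroblast markers 2 were called higher at 0 h and 1 lower at 24 h, with none called between. At 0 h these were *Col2a1* by -0.76 ± 0.08, *Sox9* by 0.61 ± 0.06 and *Comp* by 0.60 ± 0.08 (log2), and the fibroblast genes *Col3a1* by 0.71 ± 0.04 and *Lum* by 1.30 ± 0.27. The lower chondrocyte marker was *Col2a1* at 1 h, 2 h and 4 h (-0.68 ± 0.14, -0.62 ± 0.14 and -0.59 ± 0.12) and *Prg4* at 8 h (-0.65 ± 0.13). At 24 h *Sox9* differed by 0.74 ± 0.07, *Comp* by 0.87 ± 0.10 and the fibroblast gene *Dcn* by -0.68 ± 0.05. Their part in the *Il1rl1* and *Il1rap* differences was not tested. In order of level, *Il1rl1* ran from NT at 4 h (853 CPM) to IFT88siRNA at 0 h (20.6 CPM), and 10 of the 11 neighbouring conditions had no overlapping libraries, the exception being NT at 4 h and 8 h. On TPM, NT at 8 h (499 to 557 TPM) was above NT at 4 h (451 to 492 TPM), so which of them was the peak depends on the scale.

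The rise of *Il1rl1* to 4 h was proportionally larger in IFT88siRNA than in NT cells, by 0.60 ± 0.15 on the log2 scale (edgeR adjusted p = 0.0359). It was the only call among the 6 members at any time, where 0.598%, 0.245%, 0.311%, 0.275% and 0.132% of 16710 genes were called at the 5 times from 1 h to 24 h. At the times without a call, 2, 2, 2 and 1 of the 6 had an unadjusted p under 0.05 in edgeR at 1 h, 2 h, 8 h and 24 h, and DESeq2 called 0. The joint edgeR test of the response called *Il1rl1* (adjusted p = 0.0392), 1 of 6 members against 1.20% of all genes. Without replicate 1, 2 or 3 the 4 h difference was 0.66, 0.46 and 0.67 with edgeR adjusted p of 0.253, 0.0963 and 0.0954, so the call was lost without any 1 of them. At the other times the difference was 0.18 ± 0.16, 0.35 ± 0.15, 0.08 ± 0.15 and 0.12 ± 0.15, with edgeR adjusted p from 0.346 to 0.928. The 0 h libraries enter the responses and the comparison between siRNA groups, so these values are not independent.

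*Il1rap*, the accessory chain of IL1R1 and IL1RL1, rose less and was lower in IFT88siRNA cells throughout. The paper had already reported, from these data, less *Il1rap* in IFT88-depleted cells before IL-1β was added. In NT cells its levels were 83.1, 87.4 and 83.7 CPM at 0 h, 112, 111 and 109 at 1 h, 150.3, 173 and 157 at 2 h, 268, 266 and 239 at 4 h, 194, 191 and 180.1 at 8 h, and 168, 168 and 161 at 24 h. Each later time was above 0 h without overlap. On the log2 scale the rise was 0.38 ± 0.05, 0.91 ± 0.05, 1.63 ± 0.05, 1.17 ± 0.05 and 0.93 ± 0.05 at the 5 times from 1 h to 24 h, called from 2 h on. In IFT88siRNA cells the levels were 70.2, 63.4 and 70.1 CPM at 0 h, 82.4, 78.4 and 78.5 at 1 h, 119.8, 111 and 120.1 at 2 h, 183, 209 and 200.05 at 4 h, 134, 131 and 125 at 8 h, and 120.3, 116 and 109 at 24 h. These too lay above 0 h at every later time, by 0.19 ± 0.06, 0.77 ± 0.06, 1.55 ± 0.06, 0.95 ± 0.06 and 0.73 ± 0.06 (log2), called from 2 h on, the 2 h call being lost on log2(TPM + 1) (0.48).

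At each of the 6 times the 3 IFT88siRNA libraries were below the 3 NT libraries for *Il1rap*, with means at 80.1%, 72.1%, 73.1%, 76.6%, 69.1% and 69.6% of NT at the 6 times from 0 h to 24 h. The log2 difference was -0.32 ± 0.05, -0.52 ± 0.04, -0.47 ± 0.05, -0.41 ± 0.06, -0.55 ± 0.05 and -0.52 ± 0.05 in the same order. All 6 had an edgeR adjusted p under 0.05, from 3.19e-07 to 0.00130, and none passed the fold threshold. On log2(TPM + 1) the adjusted p at 4 h was no longer under 0.05 (limma adjusted p = 0.0768). The same held on TPM without a filter at 0 h (0.0585), 2 h (0.0711) and 4 h (0.168). By adjusted p alone 2, 3, 3, 2, 2 and 2 members differed, against 19.5%, 19.0%, 2.76%, 3.85%, 4.25% and 8.66% of all genes. The differences in response for *Il1rap* lay between -0.22 and -0.08 (log2), with edgeR adjusted p from 0.243 to 0.791.

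**Figure D3:**
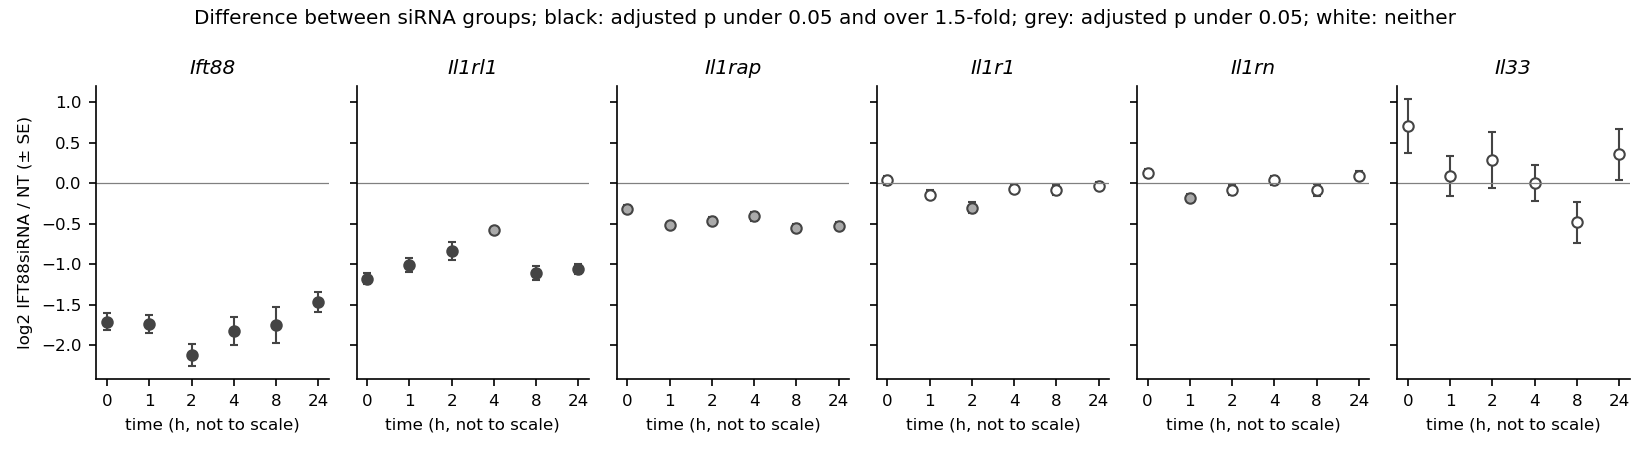
Log2 difference between IFT88siRNA and NT cells (± SE, 3 libraries per group) against time for *Ift88* and 5 members; black points passed both thresholds, grey points the adjusted p alone and white points neither. *Il1rl1* lies between -1.18 and -0.58 and *Il1rap* between -0.55 and -0.32, while *Il1r1* runs from -0.30 to 0.04 and *Il1rn* from -0.19 to 0.13 (*Il1rn* at 0 h and 4 h is below 0 on TPM).

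*Il1r1*, the signalling receptor for IL-1α and IL-1β, rose early, and in NT cells its libraries at 24 h were still above those of 0 h. Its NT levels were 31.5, 31.4 and 30.6 CPM at 0 h, 35.2, 37.6 and 38.8 at 1 h, 96.8, 92.4 and 105 at 2 h, 80.1, 91.7 and 78.3 at 4 h, 52.2, 53.3 and 47.1 at 8 h, and 41.2, 40.9 and 44.6 at 24 h. The 2 h libraries were the highest, and no times overlapped, although on TPM the 2 h and 4 h libraries did. The log2 fold change was 0.25 ± 0.07, 1.64 ± 0.06, 1.45 ± 0.06, 0.72 ± 0.06 and 0.40 ± 0.06 at the 5 times from 1 h to 24 h, of which the 2 h, 4 h and 8 h values were called. In IFT88siRNA cells the levels were 33.7, 30.9 and 31.5 CPM at 0 h, 36.1, 33.4 and 35.1 at 1 h, 84.9, 72.6 and 84.0 at 2 h, 80.2, 82.2 and 79.6 at 4 h, 47.5, 51.9 and 46.3 at 8 h, and 41.9, 41.3 and 40.6 at 24 h. The 2 h and 4 h libraries overlapped here, as did 0 h and 1 h. The 2 h, 4 h and 8 h values (log2 1.31 ± 0.06, 1.34 ± 0.06 and 0.61 ± 0.06) were called, the last of them lost with upper-quartile scaling (0.55), without replicate 2 (0.53) and on TPM (0.39).

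Between siRNA groups the *Il1r1* libraries overlapped at every time except 2 h, when the IFT88siRNA mean was 82.2% of NT (log2 -0.30 ± 0.07, edgeR adjusted p = 0.0447). Its rise to 2 h differed by -0.34 ± 0.09 (log2, edgeR adjusted p = 0.0407), which did not pass the fold threshold, and 1.24% of all genes differed by adjusted p alone. The adjusted p of the 2 h difference between siRNA groups rose to 0.233 with a library left out and to 0.367 on TPM without a filter, and that of the difference in response lay between 0.0579 and 0.370 with a replicate left out. At the other times the log2 difference between siRNA groups lay between -0.14 and 0.04.

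Within each library, the TPM of *Il1rap* per TPM of *Il1r1* was 2.95 ± 0.015 (SD, n = 3) at 0 h, 1.85 ± 0.20 at 2 h and 4.50 ± 0.26 at 24 h in NT cells. In IFT88siRNA cells this ratio was 2.22 ± 0.16, 1.69 ± 0.11 and 3.30 ± 0.20. It was lowest at 2 h in both groups, and the siRNA groups were apart at every time but 2 h. For *Il1rl1* per *Il1r1* the ratio rose from 2.11 ± 0.15 at 0 h to 24.6 ± 2.1 at 8 h in NT and from 0.818 ± 0.086 to 12.1 ± 1.9 in IFT88siRNA, the groups being apart at all 6 times.

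*Il1rn*, the antagonist of IL1R1, rose late. Its NT levels were 51.8, 53.6 and 52.6 CPM at 0 h, 58.1, 62.4 and 60.7 at 1 h, 58.7, 65.0 and 58.4 at 2 h, 185, 185 and 176 at 4 h, 341, 316 and 324 at 8 h, and 152, 159 and 145 at 24 h. The 8 h libraries were the highest, and those of 1 h and 2 h overlapped. The log2 fold change was 0.19 ± 0.05, 0.19 ± 0.05, 1.82 ± 0.05, 2.65 ± 0.05 and 1.48 ± 0.05 at the 5 times from 1 h to 24 h, called from 4 h on. In IFT88siRNA cells the levels were 61.0, 56.2 and 56.02 CPM at 0 h, 58.9, 54.1 and 51.5 at 1 h, 60.3, 60.8 and 52.7 at 2 h, 188, 207 and 174 at 4 h, 319, 352 and 270.0 at 8 h, and 170.2, 168 and 148 at 24 h. Libraries of 0 h, 1 h and 2 h overlapped here. The log2 values of 1.72 ± 0.08, 2.45 ± 0.08 and 1.45 ± 0.08 at 4 h, 8 h and 24 h were called.

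No *Il1rn* difference between siRNA groups passed the fold threshold. The IFT88siRNA mean CPM was 109.6%, 90.7%, 95.4%, 104.3%, 95.9% and 106.8% of NT at the 6 times from 0 h to 24 h, and the 1 h difference (log2 -0.19 ± 0.05, edgeR adjusted p = 0.0176) was the 1 of 6 with an adjusted p under 0.05, which rose to 0.0910 with a library left out and to 0.153 on log2(TPM + 1). Its sign at 0 h and 4 h depended on the scale, being -0.06 and -0.04 on log2(TPM + 1) and 0.13 and 0.04 on counts. Per TPM of *Il1r1*, *Il1rn* stood at 7.0003 ± 0.75 in NT at 0 h, 2.65 ± 0.29 at 2 h and 24.7 ± 2.1 at 8 h (SD, n = 3). The IFT88siRNA ratios were 6.19 ± 0.47, 2.89 ± 0.40 and 25.1 ± 0.94. The groups were apart at 0 h and 24 h and overlapped at the other times. Gene counts do not separate the secreted from the intracellular forms of IL1RN.

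**Figure D4:**
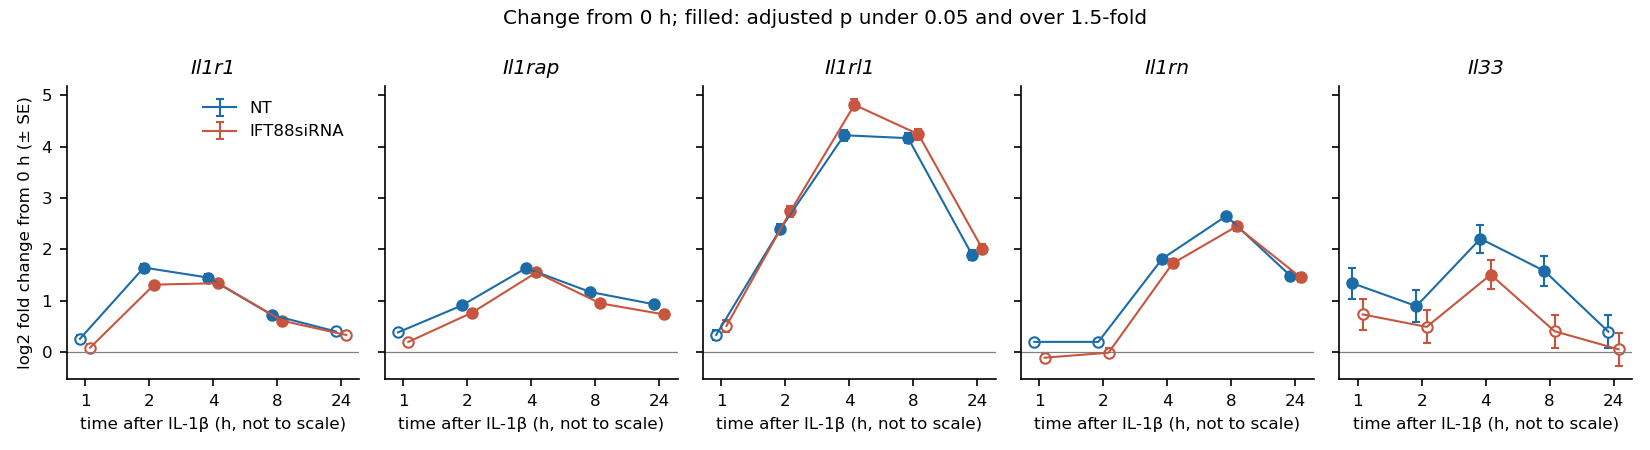
Log2 fold change from 0 h (± SE, 3 libraries per time) of 5 members in NT and IFT88siRNA cells against time, with filled points where the adjusted p was under 0.05 and the fold change over 1.5. *Il1r1* is highest at 2 h to 4 h, *Il1rap* and *Il1rl1* at 4 h and *Il1rn* at 8 h, and *Il1rl1* at 4 h reaches 4.22 in NT and 4.82 in IFT88siRNA.

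*Il33*, a nuclear alarmin and the ligand of IL1RL1, was scarce but measurable. NT libraries held 13, 7 and 9 reads at 0 h, 21, 19 and 25 at 1 h, 14, 23 and 12 at 2 h, 35, 40 and 36 at 4 h, 30, 26 and 31 at 8 h, and 13, 16 and 16 at 24 h. The 4 h libraries were above those of all other times. The log2 fold change was 1.34 ± 0.30, 0.89 ± 0.32, 2.21 ± 0.27 and 1.58 ± 0.28 at 1 h, 2 h, 4 h and 8 h, all called, and 0.39 ± 0.32 at 24 h. In NT cells *Il33* met the filter through later times and not through its 0 h libraries, so these calls may have been favoured by the filter. The 2 h call was lost with DESeq2 (adjusted p = 0.0605), on TPM and without replicate 2 (log2 0.38), and on TPM the 1 h value was under the fold threshold (0.51).

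IFT88siRNA libraries held 15, 23 and 20 reads at 0 h, 23, 31 and 30 at 1 h, 17, 17 and 33 at 2 h, 54, 30 and 42 at 4 h, 25, 24 and 22 at 8 h, and 24, 31 and 13 at 24 h of *Il33*. Only the 4 h value was called (1.504 ± 0.29), and on log2(TPM + 1) the pseudocount, which shrinks changes of scarce genes, left it under the fold threshold (0.49). Between siRNA groups the log2 difference ran from -0.48 to 0.70 (edgeR adjusted p 0.147 to 0.995), and the differences in response from -1.17 to -0.34 (edgeR adjusted p 0.275 to 0.925). At 0 h, where the difference was 0.70 ± 0.33, its 95% interval, not adjusted over genes, was 0.05 to 1.36, and no difference was detectable at this depth after adjustment (adjusted p = 0.147).

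*Il1a* was at the limit of detection. NT libraries held 3, 2 and 1 reads at 0 h, 2, 2 and 4 at 1 h, 1, 1 and 3 at 2 h, 19, 13 and 10 at 4 h, 7, 19 and 12 at 8 h, and 4, 10 and 16 at 24 h. The libraries of 4 h, 8 h and 24 h all lay above those of 0 h. Relative to library totals, the summed reads rose 6.95 times by 4 h (95% exact interval 2.94 to 19.99, counting error only), 5.96 times by 8 h (2.50 to 17.2) and 4.09 times by 24 h (1.67 to 12.02). edgeR called these times (adjusted p = 7.17e-05, 0.000703 and 0.0112), the 24 h call being lost without replicate 2 or 3 (adjusted p = 0.0575 and 0.205). On log2(TPM + 1) without a filter, the 8 h value was 0.55, under the fold threshold, and the 24 h value 0.28 (limma adjusted p = 0.159).

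IFT88siRNA libraries held 2, 1 and 1 reads at 0 h, 1, 0 and 1 at 1 h, 0, 0 and 2 at 2 h, 12, 3 and 17 at 4 h, 4, 2 and 9 at 8 h, and 5, 5 and 3 at 24 h of *Il1a*. The ratio of summed reads to 0 h was 8.74 (3.101 to 34.04) at 4 h, 3.82 (1.22 to 15.8) at 8 h and 2.83 (0.873 to 11.9) at 24 h. Over all times *Il1a* had 129 reads in NT and 68 in IFT88siRNA, although the latter libraries were deeper. At 4 h, where it passed the filter, the siRNA groups overlapped (log2 -0.57 ± 0.45, edgeR adjusted p = 0.538). In CPM they were apart at 1 h (IFT88siRNA mean 22.0% of NT) and at 8 h (34.6%), and overlapped at the other times. At 1 h and 8 h *Il1a* did not pass the filter and was not tested between siRNA groups. The joint edgeR test over the 6 times called *Il1a* (adjusted p = 0.0240) beside *Il1rl1* (2.08e-16), 2 of 6 members against 5.19% of 16710 genes. *Il1a* had failed the filter in the IFT88siRNA libraries alone, so NT libraries carried it into this test. The *Il1a* call was lost in edgeR without replicate 1 (adjusted p = 0.0846) or 2 (0.423).

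*Il1b*, whose protein was the stimulus, and *Sigirr* passed the filter of edgeR in no comparison. *Il1b* had 0 to 2 reads per library, 8 over the NT and 6 over the IFT88siRNA libraries. A count of 0 allows up to 0.155 CPM in the shallowest library (3 reads of its total). NT libraries held 4, 9 and 4 reads at 0 h, 1, 1 and 9 at 1 h, 3, 3 and 2 at 2 h, 1, 1 and 3 at 4 h, 3, 2 and 1 at 8 h, and 4, 10 and 7 at 24 h of *Sigirr*, and IFT88siRNA libraries 4, 1 and 10 reads at 0 h, 1, 1 and 3 at 1 h, 3, 6 and 1 at 2 h, 1, 0 and 0 at 4 h, 4, 8 and 10 at 8 h, and 2, 6 and 6 at 24 h. In NT the 0 h counts were above those of 2 h, 4 h and 8 h and overlapped the others, and DESeq2 called none of these NT changes (adjusted p 0.468, 0.249 and 0.254). In IFT88siRNA the 4 h counts overlapped those of 0 h, where DESeq2 made its lower call (adjusted p = 0.0389). *Sigirr* had 0 to 10 reads per library, 68 in NT and 67 in IFT88siRNA. No fold change is given for either gene at these counts.

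In order of mean CPM over the 12 conditions, 7 of 11 neighbouring pairs of conditions had no overlapping libraries for *Il1rap*, 4 for *Il1r1*, 3 for *Il1rn*, 1 for *Il33* and 0 for *Il1a*, *Il1b* and *Sigirr*. *Il1rap* was highest in NT at 4 h (258 CPM) and lowest in IFT88siRNA at 0 h (67.9 CPM). *Il1r1* was highest in NT at 2 h (98.0 CPM) and lowest in NT at 0 h (31.2 CPM). *Il1rn* was highest in NT at 8 h (327 CPM) and lowest in NT at 0 h (52.7 CPM), with the IFT88siRNA libraries of 8 h overlapping those of NT.

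Over the 12 condition means of log2 CPM, the pattern of each member was set beside those of 13254 genes. The most alike by Pearson r were *Mfhas1* (0.997), *Hacd2* (0.989) and *Stk10* (0.987) for *Il1r1*, *Zmynd15* (0.981), *Plekhs1* (0.975) and *Ctu2* (0.973) for *Il1rl1* and *Zmynd15* (0.957), *Gm6034* (0.954) and *Syn1* (0.952) for *Il1rap*. For *Il1rn* they were *Shisa5* (0.992), *Tbl3* (0.984) and *Alas1* (0.984), and for *Il33* *Gm7451* (0.947), *Thbd* (0.939) and *Cd200* (0.939). Among the members, *Il1rap* and *Il1rl1* were the most alike of 10 pairs (r = 0.94), and *Il1r1* and *Il1rn* the least (r = 0.23). The 12 points share libraries and scaling, and no test was made.

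Other genes of the IL-1 system were read through lists of symbols, beside 28.7% of all genes called and 16.3% called higher at 4 h in NT cells. Of 7 other family ligands and binding proteins in the tables, 3 were tested in NT cells and all were called higher at 4 h, with a median log2 change of 2.35. They were *Il18bp*, a secreted inhibitor of IL-18 (2.35 ± 0.12), *Il18* (0.98 ± 0.11) and *Il1f6*, with 0 to 17 reads per library. *Il1f6* had a mean of 0 TPM at 0 h in NT, so it passed the filter only through later times. Of 6 other family receptors, 3 were tested and 2 called higher at 4 h, *Il18rap*, the accessory chain of the IL-18 receptor (3.51 ± 0.14), and *Il1rapl1* (0.61 ± 0.20). *Il1rapl1* was lower than at 0 h by 8 h (-2.02 ± 0.27). The decoy receptor *Il1r2* held 0 to 3 reads per library. Between siRNA groups *Il18rap* was called lower at 1 h, 2 h, 8 h and 24 h (log2 -1.09 ± 0.35, -0.86 ± 0.17, -0.79 ± 0.13 and -0.75 ± 0.09), the first of these not with DESeq2.

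Of 10 tested genes that cleave or release IL-1 family ligands, 6 were called higher and none lower at 4 h in NT cells, with a median log2 change of 0.79, where 16.3% of all genes were called higher. *Casp4*, a caspase of the non-canonical inflammasome, rose by 3.82 ± 0.07, the inflammasome sensor *Nlrp3* by 2.99 ± 0.35, the DNA sensor *Aim2* by 1.46 ± 0.21 and the pore-forming *Gsdmd* by 1.13 ± 0.06. *Nlrp3* had a mean of 0.128 TPM at 0 h in NT and passed the filter only through later times, so its call was favoured by the filter. *Casp1*, which cleaves pro-IL-1β, held 0 to 8 reads and its adaptor *Pycard* 1 to 11 reads per library. Between siRNA groups *Nlrp3*, with 2 to 56 reads per library, was the gene of this list called lower by edgeR at 4 h, 8 h and 24 h (log2 -1.06 ± 0.27, -1.62 ± 0.35 and -1.33 ± 0.34), and DESeq2 called none of the list at these times.

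Of 17 receptor-proximal signalling genes, 5 were called higher and none lower at 4 h in NT cells, with a median log2 change of 0.25, beside 28.7% of all genes called in either direction and 16.3% called higher. They included *Irak3*, an inhibitory IRAK family member (2.31 ± 0.19), the adaptor *Myd88* (2.17 ± 0.05), the kinase *Irak2* (1.33 ± 0.07) and the E3 ligase *Peli1* (1.20 ± 0.05). Between siRNA groups neither edgeR nor DESeq2 called any of the 17 at any time, and 6, 5, 3, 6, 3 and 4 had an unadjusted p under 0.05 in edgeR at the 6 times from 0 h to 24 h. All 11 feedback and early target genes were called higher at 2 h, 4 h and 8 h in both siRNA groups, with a median log2 change of 3.57 at 4 h in NT. Among all genes 13.0%, 16.3% and 11.8% were called higher at these times in NT, and 12.4%, 16.0% and 10.5% in IFT88siRNA. *Nos2* and *Il6* were near 0 before IL-1β (0.00731 and 0.452 TPM at 0 h in NT). They passed the filter only through later times, so their calls were favoured by it. In IFT88siRNA cells 1, 1, 0, 3, 5 and 3 of 9, 10, 11, 11, 11 and 11 tested were called lower than in NT at the 6 times from 0 h to 24 h, and none higher, beside 2.23%, 2.66%, 0.496%, 0.432%, 0.692% and 1.15% of all genes called in either direction. At 2 h, with no call, 8 had an unadjusted p under 0.05 and DESeq2 called 0. The 0 h call was not made by DESeq2. At 8 h the cytokine *Il6* differed by -1.43 ± 0.10, *Nos2* by -1.004 ± 0.06, *Ptgs2* by -0.95 ± 0.08 and the chemokine *Cxcl1* by -0.65 ± 0.05 (log2). The list holds *Il6*, *Nos2* and *Ptgs2*, which the paper had already reported as lower after IFT88 depletion in these data.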

How the data were processed

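RNA-seq was analysed in 36 libraries of 12 conditions. The authors aligned reads to GRCm38 with HISAT2 2.1.0 and deposited raw counts per gene from featureCounts (Subread 1.6.3), and they deposited TPM per gene from Salmon 0.9.1 with Ensembl 91 transcripts. TPM are relative to each library and were not TMM-scaled.

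Counts were tested with edgeR 4.0.16 (TMM scaling, filterByExpr, quasi-likelihood F test, Benjamini-Hochberg adjustment over all genes tested). The response to IL-1β was fitted within each siRNA group (18 libraries), the siRNA groups at each time (6 libraries), and joint tests and differences in response over 36 libraries. The standard error is the log2 fold change over the square root of F. A gene was called at an adjusted p under 0.05 and a fold change over 1.5. Joint tests used the largest change over the times for the fold threshold. Alternatives were DESeq2 1.42.0, limma 3.58.1 on log2(TPM + 1), other scalings, filters and pseudocounts, a replicate block and left-out libraries. Simulated counts were used to test the edgeR fits of the NT response and of the difference in response, each at 4 h. They were also used for the siRNA groups at 0 h, and the other fits and the joint tests were not tested in this way. Replicates differed beyond sampling noise (chi-square per degree of freedom 1.65 to 10.02 over 36 pairs).

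Members and gene lists were chosen with earlier results of these data known. Members were named whatever their result. From the other lists, up to 4 called genes with the largest change were named, and *Il1f6*, *Il1r2*, *Casp1*, *Pycard*, *Comp* and the markers for their levels. Likeness used genes with a mean of at least 1 CPM. Intervals and floors cover counting error only. Promoter windows came from RefSeq (GRCm38.p6), in which 7 of 8 members matched, and gene positions from GENCODE M21. R 4.3.3, Python 3.11.15, pandas 2.3.3 and matplotlib 3.10.9 were used.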

Additional observations from a re-analysis of the deposited data

Results flagged for a closer look

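The response of *Il1rl1* to IL-1β at 4 h differed between siRNA groups by a test of the difference itself. The log2 fold change from 0 h was 4.22 ± 0.10 in NT and 4.82 ± 0.11 in IFT88siRNA (SE, n = 3 libraries per time), a difference of 0.60 ± 0.15 (edgeR adjusted p = 0.0359). The IFT88siRNA level was below NT at both ends, with 46.5 and 20.6 CPM at 0 h and 853 and 578 CPM at 4 h. The call was lost on TPM (0.57, limma adjusted p = 0.0888) and with any 1 replicate left out, although the direction stayed.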

How the results depend on the processing

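Of 1731 alternative values for single members, 1612 kept their direction and their side of the threshold, 36 fell below it, 29 passed it and 54 changed sign; the causes were not tested. In the TPM fits, with 1 added before taking logs, signs changed for Il1rn in NT at 1 h, to -0.0422 (-0.0425 with 0.1 added, -0.0422 unfiltered), and at 2 h, to -0.0379 (-0.0382 with 0.1 added, -0.0379 unfiltered); for IFT88siRNA responses of Il1r1 at 1 h, to -0.131 (-0.139 with 0.1 added, -0.131 unfiltered), and Il33 at 8 h, to -0.0333 (-0.0705 with 0.1 added, -0.0333 unfiltered), and at 24 h, to -0.0213 (-0.0478 with 0.1 added, -0.0213 unfiltered). Between siRNA groups they changed for Il1rn at 0 h, to -0.0559 (-0.0564 with 0.1 added, -0.0559 unfiltered), and at 4 h, to -0.0409 (-0.0410 with 0.1 added, -0.0409 unfiltered), and for Il33 at 4 h, to -0.0115 (-0.0168 with 0.1 added, -0.0115 unfiltered). Differences in response changed for Il1rn at 4 h, to 0.0151 (0.0154 with 0.1 added, 0.0151 unfiltered), and at 24 h, to 0.296 (0.297 with 0.1 added, 0.296 unfiltered), and for Il1a at 4 h, to -0.157 unfiltered. None of these values was called from the counts.

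With 1 replicate or library left out, the log2 change in NT ran from -0.119 to 1.05 for Il1a at 1 h and -1.03 to 0.454 at 2 h, and in IFT88siRNA from -0.0771 to 0.0183 for Il1rn at 2 h and -0.337 to 0.329 for Il33 at 24 h. Between siRNA groups it ran from -0.00186 to 0.0653 for Il1r1 at 0 h, -0.104 to 0.00413 at 4 h and -0.0528 to 0.00129 at 24 h; from -0.0742 to 0.220 for Il33 at 1 h, -0.0536 to 0.589 at 2 h and -0.227 to 0.159 at 4 h; and from -0.0216 to 0.0904 for Il1rn at 4 h, -0.166 to 0.00147 at 8 h and -0.244 to 0.150 for the largest change in the joint test. The difference in response ran from -0.922 to 0.344 for Il33 at 2 h and -1.06 to 0.00973 at 24 h, -0.195 to 0.0514 for Il1rap at 4 h, and -0.242 to 0.450, -1.34 to 0.0425 and -1.23 to 0.165 for Il1a at 4 h, 8 h and 24 h.

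In NT 21 pairs of member and time were called, and 16 to 27 over the other settings. In IFT88siRNA 15 were, and 12 to 18 over the other settings, with 5 members in the joint test and 5 to 7 over its other settings. Pairs called between siRNA groups numbered 5, or 14 without the fold threshold and 5 to 7 with a library left out. The joint test called 2 members, or 4 without the fold threshold and 1 to 2 with a replicate left out. For the difference in response 1 pair was called, or 2 without the fold threshold and 0 on TPM under all 3 TPM settings, and 0 to 0 with a replicate left out. Its joint test called 1 member, and 0 to 0 with a replicate left out.

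Nothing in the labels ties same-numbered libraries together. The correlation of their deviations ran from -0.21 to 0.39, 6 of 18 were over 0.1, and 7 of 18 libraries were most like their own number. With the replicate number as a block, 21 pairs of member and time in NT, 15 in IFT88siRNA, 5 between siRNA groups and 1 for the difference in response were called, and 6, 5, 2 and 1 members in the joint tests, so the block moved none of these counts; Il33 between siRNA groups at 4 h became -0.0196. Over all genes, calls between siRNA groups varied with tool, scale and threshold, being 341 (75 to 406), 393 (51 to 473), 73 (11 to 142), 64 (13 to 100), 105 (22 to 245) and 175 (34 to 217) at the 6 times from 0 h to 24 h. For the difference in response they were 100 (51 to 119), 41 (20 to 85), 52 (31 to 77) and 22 (18 to 40) at 1 h, 2 h, 4 h and 24 h, and 201 (199 to 345) in the joint test. Upper-quartile scaling shifted the median of all genes by -0.119 at 2 h and -0.137 at 4 h in NT. Higher calls there were 2608 of 4602 at 4 h in NT, or 2263 of 4950 with that scaling. In IFT88siRNA the shift was -0.113 at 2 h and -0.122 at 4 h, and higher calls were 1998 of 4130 at 2 h, or 1664 of 4384, and 2574 of 4722 at 4 h, or 2221 of 5031. Depth limits Il1a, Il1b, Sigirr and Il33, for which few reads were counted.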
